A study of Mus musculus with 8 samples.

Results

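The genes described here are 10 genes of the mitochondrial pathway of apoptosis, picked by symbol: the effectors Bax, Bak1 and Bok, the pro-survival genes Bcl2, Bcl2l1, Bcl2l2 and Mcl1, the BH3-only genes Bcl2l11 and Bad, and Trp53. All 10 were found by their symbol among the 23983 genes of the expression table. RNA of whole testis from wild-type C57BL/6J mice was sequenced on postnatal days 12, 16 and 24 (d12, d16, d24) and in adult mice, whose age the labels do not give, with 1 library per stage. The study profiled staged testes to choose sites and promoters for transgenes that are active late in spermatogenesis. The mice carry no transgene and received no treatment in the labels, and whether a library holds 1 animal or several is not stated. There is therefore no measure of the spread between animals, and no test between stages that allows for it was made. Intervals compared between stages below cover counting error only, not this spread or the scaling between libraries.

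Proteins of the Bcl2 family decide whether the outer membrane of the mitochondrion is opened. Bax and Bak1 form the pore, the pro-survival proteins bind and hold them back, and BH3-only proteins relieve or bypass this block through a short helix, the BH3 domain. Cytochrome c then leaves the mitochondrion and joins Apaf1, on which caspase 9 is activated. In the young mouse testis an early wave of germ cell death accompanies the first round of spermatogenesis. Loss of Bax blocks much of this death and leaves males infertile, and loss of Bcl2l2 makes males sterile.

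The BH3 core is what the family shares, so the codons around it are shown for the 9 members that hold it. They were read from the RefSeq coding sequence on GRCm38, on the strand of the gene, in windows of 30 bases from 5′ to 3′. The search was for a leucine or methionine, any 3 residues, a glycine, alanine or serine, an aspartate, then D, E or G and a residue F, I, L or V. It matched once in each of the 9 coding sequences and 0 times in that of Trp53. The pattern allows residues that single members hold, as methionine in Bcl2l2, serine in Bad and G after the aspartate in Mcl1. The matches therefore locate the core and are no test of it. Capitals mark the codon of the leading leucine or methionine and that of the aspartate.
Bax: tgtCTCcggcgaattggaGATgaactggac
Bak1: cagCTTgctctcatcggaGATgatattaac
Bok: gtgCTGctgcgcttgggaGATgagctggag
Bcl2: accCTCcgccgggctgggGATgacttctct
Bcl2l1: gcgCTGagagaggcaggcGATgagtttgaa
Bcl2l2: gccATGcgggctgctggaGACgagtttgag
Mcl1: accCTGcggcgcgtgggcGACggcgtgcag
Bcl2l11: gagCTGcggcggatcggaGACgagttcaac
Bad: gagCTCcgaaggatgagcGATgagtttgag

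Bcl2l2 was the only member with a methionine codon at the first marked position, and Bad the only one whose codon before the aspartate reads agc, for serine. Over the 30 bases, Bad and Bcl2l11 shared 20, as did Bad with Bcl2l1, Bax with Bok, Bcl2l11 with Bok, and Bcl2l1 with Bcl2l2, and no pair shared more. The windows lie at chr7:45465997-45466026 in exon 3 of 6 of Bax, at chr17:27022531-27022560 in exon 4 of 6 of Bak1 and at chr1:106712575-106712604 in exon 1 of 2 of Bcl2. That of Bcl2l1 lies at chr2:152829697-152829726 in exon 2 of 5 of the transcript used, that of Bcl2l2 at chr14:54884514-54884543 in exon 3 of 4 and that of Mcl1 at chr3:95659433-95659462 in exon 1 of 3. For Bcl2l11 it lies at chr2:128147147-128147176 in exon 3 of 4, and for Bad at chr19:6950789-6950818 in exon 3 of 4. In Bok the window is cut by an intron between exons 2 and 3 and spans chr1:93686654-93689170.

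Values are given in FPKM, fragments per kilobase of transcript after a scaling of each library, as the authors computed them. At d24 and in adult testis the number of fragments that the values are divided by was smaller than the estimated number on genes, so they are not relative to each library's own total. They are per length, so levels of different genes can be compared inside a library, with a limit. The authors switched off the correction for effective transcript length, and curated transcripts have 869 bases for Bax and 3488 for Mcl1. How far this shifts a short gene against a longer gene was not tested. Brackets hold exact 95% Poisson intervals from the number of fragments behind a value, which cover counting error only. That number was recovered from the values, as a transcript of 1 kb gains 0.0799 FPKM per fragment at d12 and 0.0800 at d16, then 0.0455 at d24 and 0.112 in adult testis. Bcl2, Bcl2l1, Bcl2l11 and Bad have curated transcripts of unequal length, so the smallest possible number was used for them and their intervals are wide. The FPKM values of all genes sum to 283580 at d12 and 307964 at d16, followed by 472726 at d24 and 659202 in adult testis. A difference between stages therefore depends on the scaling between libraries, while a ratio of 2 genes inside a library does not.

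The cell types in these libraries differed greatly between stages. The summed level of 6 markers of pachytene spermatocytes was 49.6 FPKM at d12 and 875.0 at d16, against 3832 at d24 and 4559 in adult testis. Of 6 round spermatid markers, 2 were listed at 0 at d12 and 3 at d16, and their sum was 3.13, 4.85, 540.3 and 1468 FPKM. The 6 elongating spermatid markers summed to 13.2 FPKM at d12 and 4.45 at d16, then 2363 at d24 and 26392 in adult testis. The opposite order held for spermatogonial markers, with a sum of 198.0 FPKM at d12 and 37.8 in adult testis, for Sertoli markers with 180.6 and 63.0, and for peritubular markers with 243.3 and 79.9. Amh, a defining marker of immature Sertoli cells, was listed at 0 in adult testis. Markers of macrophages and endothelium summed to 23.7 and 10.6 FPKM, those of Leydig cells to 132.7 and 605.2, and the sum for early spermatocytes peaked at d16 with 1747 FPKM. In the spermatogonial, Sertoli, Leydig, early spermatocyte, and macrophage and endothelial lists most markers peaked with their sum, but not all. A spermatogonial marker was highest in adult testis and a Sertoli marker at d16. Single Leydig markers were highest at d12 and d24, and single early spermatocyte markers at d12 and in adult testis. Of the 6 macrophage and endothelial markers, 2 were higher at d16 than at d12. The pachytene list was split, with 3 of 6 markers higher in adult testis than at d24 and 3 lower. The part of this changing makeup in the results that follow was not tested, and in whole testis fewer cells of a type and less RNA per cell cannot be told apart.

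**Figure D1:**
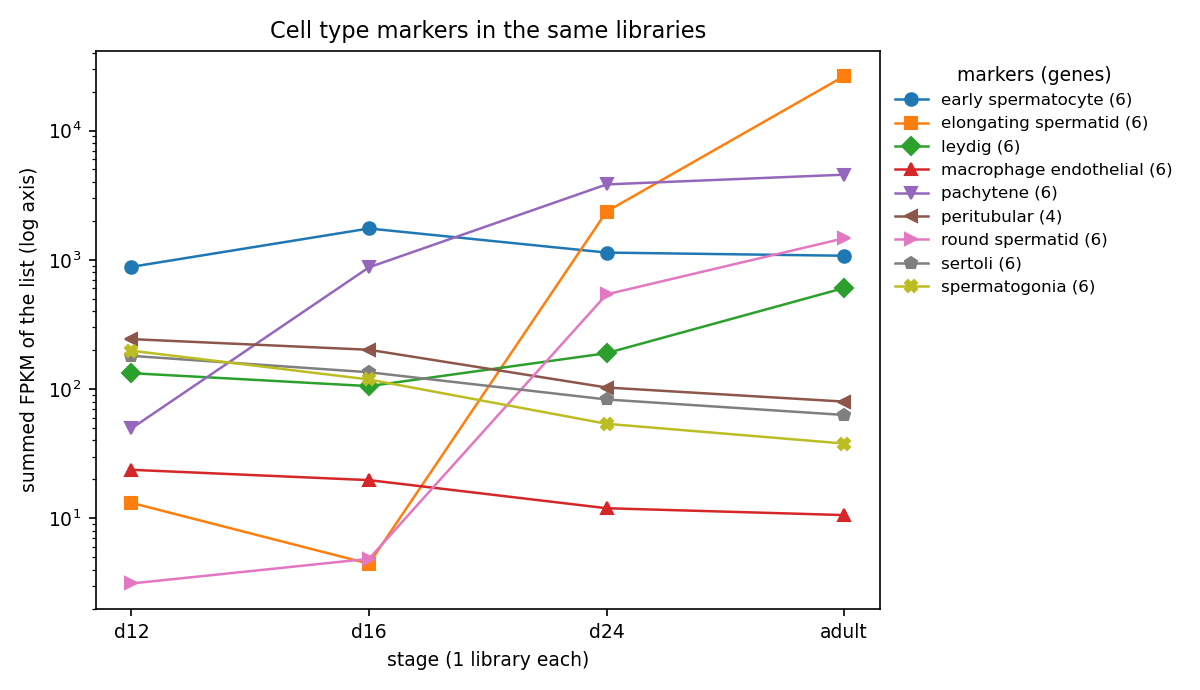
Summed FPKM of 9 marker lists (log axis) at each stage, 1 library per point, with the number of genes of each list in brackets. Spermatid and pachytene lists climb by d24, while spermatogonial, Sertoli and peritubular lists are highest at d12.

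Of the effectors, Bax was the highest at d12 and d16 and Bak1 at d24 and in adult testis. Bax had 9.19 FPKM at d12 (7.48 to 11.2) and 6.26 at d16 (4.86 to 7.94), followed by 3.51 at d24 (2.72 to 4.46) and 3.10 in adult testis (1.98 to 4.61). Its level was lower at d16 than at d12 by a ratio whose interval excludes 1 (1.47, 1.07 to 2.03), and again at d24 (1.78, 1.25 to 2.54), while d24 and adult testis did not differ beyond counting error. From d12 to adult testis the ratio was 2.97 (1.89 to 4.85, from 100 and 24 fragments). Bak1 had 2.67 FPKM at d12 (2.07 to 3.39) and 2.68 at d16 (2.07 to 3.40), against 5.32 at d24 (4.66 to 6.05) and 5.49 in adult testis (4.46 to 6.68). The d24 and adult intervals lie clear of the d12 and d16 intervals as deposited, though with libraries brought to equal FPKM sums adult testis lies slightly below d12. Bok, a relative of Bax and Bak1, had 3.74 FPKM at d12 (2.93 to 4.70) and 1.56 at d16 (1.06 to 2.23), then 0.763 at d24 (0.498 to 1.12) and 0.392 in adult testis (0.127 to 0.914). It went from 73 fragments at d12 to 5 in adult testis, so its adult value is imprecise. The ratio of 9.54 between these stages has an interval of 3.91 to 30.3. Before rounding the numbers were 30.5 at d16 and 5.44 in adult testis, not near whole numbers, so the Bok intervals are approximate.

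Inside a library, Bak1 was at 0.291 times the Bax level at d12 (0.210 to 0.400), at 0.428 times at d16 (0.301 to 0.608), at 1.52 times at d24 (1.15 to 2.02) and at 1.77 times in adult testis (1.13 to 2.90). The order of both effectors was therefore reversed between d16 and d24, beyond counting error and whatever the scaling. Bax has a transcript of 869 bases and Bak1 of 2003 or 2023, and the part of length in their order was not tested. Bok lay at 0.407 times the Bax level at d12 and at 0.126 times in adult testis (0.0377 to 0.338).

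The Bak1 value has a limit set by its locus. Bak1 lies on the minus strand of chromosome 17 from 27019812 to 27028627 and wholly inside the plus-strand gene Ggnbp1 (27018035 to 27036378). Ggnbp1 had 1.57 FPKM at d12 and 42.6 at d16, followed by 440.9 at d24 and 490.8 in adult testis, so that the Bak1 level was 1.12% of the Ggnbp1 level in adult testis. The libraries are strand-specific. How many antisense fragments of Ggnbp1 were counted for Bak1 was not tested, and the reversed order of Bak1 and Bax shares this limit. No annotated gene overlaps Bax (chromosome 7, 45461695 to 45466903, minus strand) or Bok (chromosome 1, 93685575 to 93695770, plus strand).

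**Figure D2:**
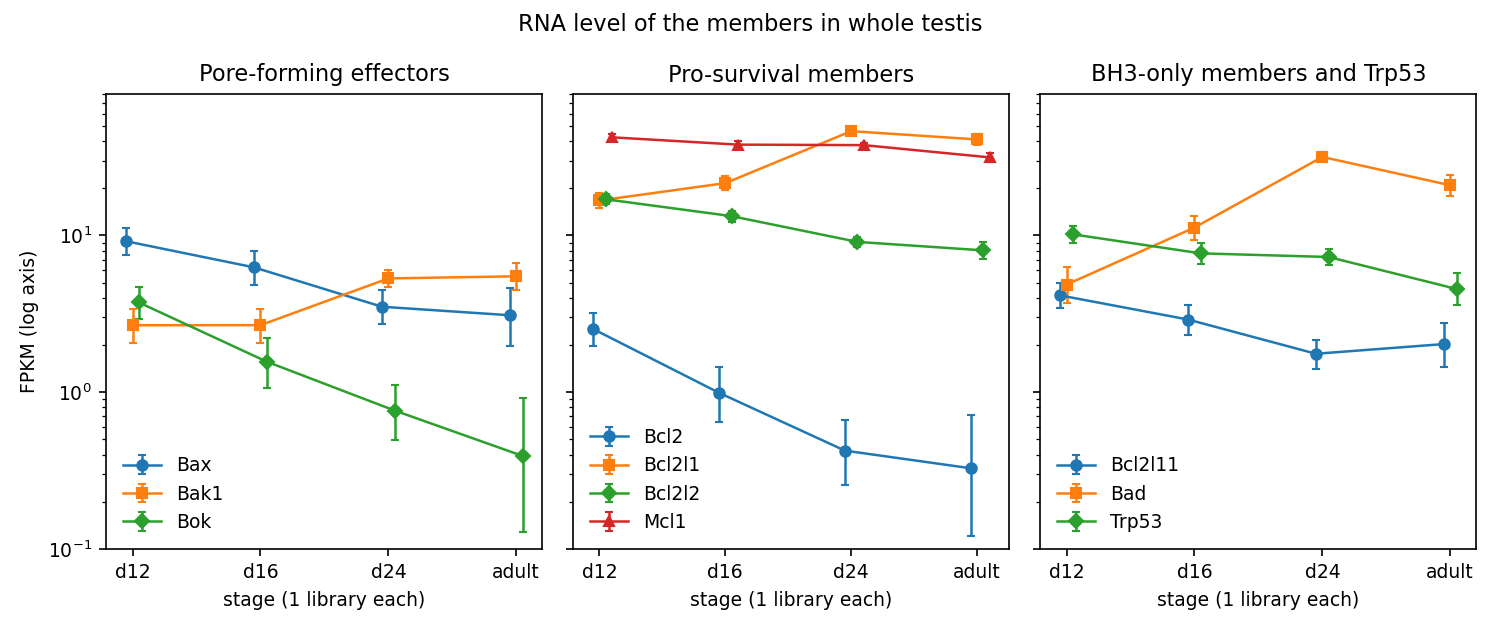
FPKM of the 10 members (log axis) at each stage, 1 library per point, with exact 95% Poisson intervals as bars. Bax, Bok and Bcl2 go down from d12 to adult testis, while Bak1, Bcl2l1 and Bad are higher at d24 and in adult testis than at d12 as deposited, which for Bak1 in adult testis turns with equal FPKM sums.

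The pro-survival genes held most of the summed level of the 10 genes, 69.3% at d12 and 69.6% at d16, against 65.0% at d24 and 68.9% in adult testis. The share was nearly constant, but the genes that made it up were not. Mcl1, whose protein turns over fast, had 42.3 FPKM at d12 (40.4 to 44.3) and 38.0 at d16 (36.2 to 39.9), then 37.7 at d24 (36.4 to 39.1) and 31.5 in adult testis (29.6 to 33.6). As deposited it changed least of the 10 over the whole span, by -0.42 on the log2 scale. Bcl2l1, which encodes Bcl-xL, had 16.7 FPKM at d12 (14.9 to 18.7) and 21.6 at d16 (19.5 to 23.8), followed by 46.3 at d24 (44.0 to 48.8) and 41.0 in adult testis (37.6 to 44.7). The ratio of d24 to d16 was 2.15 as deposited (1.92 to 2.41), a log2 difference of 1.098 that was 0.48 with equal FPKM sums.

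Bcl2l2, which encodes Bcl-w, had 17.0 FPKM at d12 (15.8 to 18.3) and 13.3 at d16 (12.2 to 14.4), against 9.10 at d24 (8.44 to 9.80) and 8.04 in adult testis (7.07 to 9.10). The d12, d16 and d24 intervals do not overlap, and each later one lies lower. Bcl2 itself was low throughout, with 2.53 FPKM at d12 (1.96 to 3.21) and 0.991 at d16 (0.647 to 1.45), then 0.424 at d24 (0.255 to 0.661) and 0.327 in adult testis (0.120 to 0.711). Its d12 interval lies above those of all later stages, and the ratio of d12 to adult testis was 7.74 (3.38 to 21.8, from at least 67 and 6 fragments).

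Bcl2l1 and Bcl2l2 started level and parted. At d12 the ratio of Bcl2l1 to Bcl2l2 was 0.982 (0.856 to 1.12), and it was 1.62 at d16 (1.42 to 1.85), then 5.09 at d24 (4.65 to 5.58) and 5.11 in adult testis (4.38 to 5.96). Against Mcl1, Bcl2l1 lay at 0.395 times at d12 (0.349 to 0.446) and 0.568 at d16 (0.507 to 0.634), followed by 1.23 at d24 (1.15 to 1.31) and 1.30 in adult testis (1.17 to 1.45). Mcl1 was thus the highest pro-survival gene at d12 and d16, and Bcl2l1 at d24 and in adult testis. Against Bcl2, the ratio of Bcl2l1 was 6.61 at d12 (5.06 to 8.75) and 125.6 in adult testis (57.3 to 343.8). By d24 the Bcl2l1 to Mcl1 and the Bcl2l1 to Bcl2l2 ratios lay within the adult intervals.

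**Figure D3:**
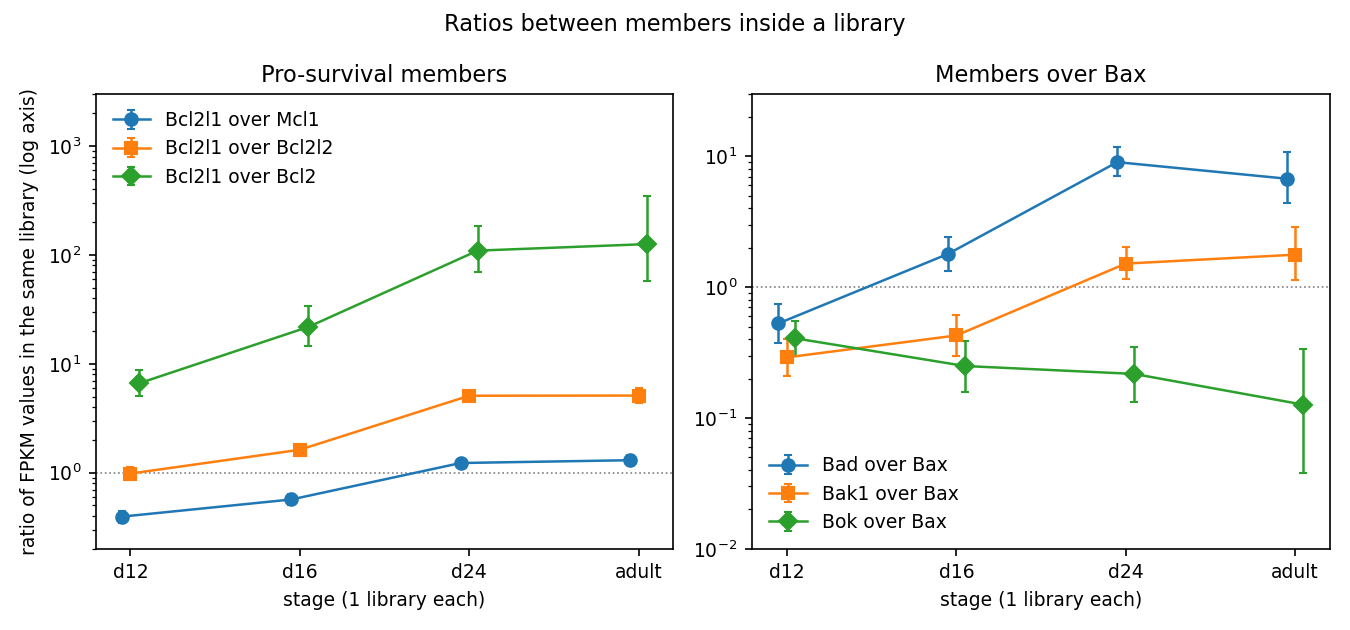
Ratios of FPKM values inside a library (log axis) at each stage, with exact 95% intervals for counting error as bars and a dotted line at 1. Bcl2l1 over Mcl1 goes from 0.395 to 1.30 and Bad over Bax from 0.529 to 6.76, both passing 1, while Bok over Bax stays below 1.

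Several loci matter for these values. Bcl2l1 (chromosome 2, 152758732 to 152833803, minus strand) overlaps Cox4i2 on the other strand, which had 2.53 FPKM at d12 and 0.309 in adult testis. Bcl2 (chromosome 1, 106538176 to 106714290, minus strand) overlaps Mir3473f, listed at 0 throughout, and has curated transcripts of 2126 and 7209 bases. Mcl1 lies on chromosome 3 from 95656944 to 95663179 and Bcl2l2 on chromosome 14 from 54883366 to 54890858, both on the plus strand with no overlapping gene.

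Bad and Bcl2l11, the BH3-only genes, parted as well. Bad encodes a BH3-only protein that binds Bcl-xL and is held inactive when phosphorylated. It had 4.86 FPKM at d12 (3.68 to 6.30) and 11.2 at d16 (9.40 to 13.3), against 31.7 at d24 (29.3 to 34.2) and 20.9 in adult testis (17.9 to 24.3). No intervals of these 4 stages overlap, and d24 is the highest. Bcl2l11 encodes Bim, which binds all pro-survival members. It had 4.15 FPKM at d12 (3.43 to 4.96) and 2.91 at d16 (2.32 to 3.61), then 1.76 at d24 (1.41 to 2.17) and 2.03 in adult testis (1.45 to 2.75). Its d12 interval lies above those of d24 and adult testis, which overlap each other.

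At d12 Bad and Bcl2l11 did not differ beyond counting error, with a ratio of 1.17 (0.840 to 1.62). The ratio was 3.86 at d16 (2.91 to 5.15), then 18.04 at d24 (14.4 to 22.8) and 10.3 in adult testis (7.31 to 14.9). Against Bax, Bad lay at 0.529 times at d12 (0.375 to 0.740) and 1.79 at d16 (1.33 to 2.44), followed by 9.04 at d24 (7.02 to 11.8) and 6.76 in adult testis (4.40 to 10.8). Bad was therefore already above Bax at d16, before Bak1 was. Against its partner Bcl2l1, Bad lay at 0.291 times at d12 and 0.520 at d16, against 0.685 at d24 and 0.510 in adult testis.

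Bad lies on chromosome 19 from 6941861 to 6951905 on the plus strand, and its start overlaps Gpr137 on the other strand. Gpr137 had 2.24 FPKM at d12 and 6.48 at d16, then 21.6 at d24 and 23.95 in adult testis, in the same direction as Bad up to d24. Bcl2l11 (chromosome 2, 128126038 to 128162547, plus strand) overlaps the end of Acoxl on the same strand, which stayed between 0.195 and 0.392 FPKM.

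Trp53 encodes p53, which activates transcription of Bax and of BH3-only genes after DNA damage. It lies on chromosome 11 from 69580348 to 69591873 on the plus strand with no overlapping gene. Its level was 10.2 FPKM at d12 (8.90 to 11.6) and 7.69 at d16 (6.59 to 8.92), followed by 7.29 at d24 (6.48 to 8.18) and 4.56 in adult testis (3.58 to 5.72). The d16 and d24 values overlap, and adult testis lies below both, at 0.625 times the d24 level (0.478 to 0.809).

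In order of level, the d12 library had Mcl1 first, then Bcl2l2 and Bcl2l1, whose intervals overlap, then Trp53 and Bax, which overlap too. Bad, Bcl2l11, Bok, Bak1 and Bcl2 followed, each with an interval that overlaps the next. In adult testis Bcl2l1 was first, followed by Mcl1, Bad and Bcl2l2, with no overlap between these neighbours. Bak1, Trp53, Bax and Bcl2l11 came next, each overlapping its neighbour, and Bok and Bcl2 were last with overlapping intervals. Bad moved from rank 6 at d12 to rank 4 at d16 and rank 3 at d24 and in adult testis, and Bax from rank 5 to 6 and then 7.

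Summed over each role, the effectors had 15.6 FPKM at d12 and 10.5 at d16, against 9.59 at d24 and 8.98 in adult testis. The pro-survival genes had 78.6, 73.9, 93.6 and 80.9 FPKM. The ratio of effectors to pro-survival genes was 0.198 at d12 and 0.142 at d16, then 0.102 at d24 and 0.111 in adult testis, or 1.79 times higher at d12 than in adult testis. Most of the pro-survival sum is Mcl1 at d12 and Bcl2l1 with Mcl1 in adult testis, and without Mcl1 the ratio was 0.430 at d12 and 0.182 in adult testis. The BH3-only genes made up 7.95% of the summed level of the 10 genes at d12 and 23.3% at d24. RNA levels do not give the amounts of the proteins or their phosphorylation.

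Steps between stages were then read on all genes at once. A gene counted as changed when its log2(FPKM + 0.1) differed by at least 1 (2-fold) and it reached 1 FPKM in either library. From d12 to d16, Bad was higher and Bok and Bcl2 were lower by this rule, which is 1 and 2 of 10. Over the 13174 genes tested, 11.7% were higher and 4.22% lower. From d16 to d24, Bad and Bcl2l1 were higher and 0 of 9 members tested were lower, beside 27.8% and 9.13% of 14233 genes. Bcl2 was not tested at this step, as its 0.991 FPKM at d16 lay just under the minimum, and its log2 difference was -1.06. From d24 to adult testis 0 of 8 members tested changed by this rule, beside 13.4% higher and 2.08% lower of 14185 genes. Bok and Bcl2 were under the minimum there.

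Over the whole span from d12 to adult testis, as deposited 3 of 10 members were higher (Bak1, whose sign turns with equal FPKM sums, Bcl2l1 and Bad) and 5 were lower (Bax, Bok, Bcl2, Bcl2l2 and Trp53). Among all 15015 genes tested, 36.6% were higher and 24.2% lower. Bcl2l11 at -0.997 fell just short, and Bak1 at 1.01 just passed. The median difference of the members was -1.04, against 0.21 over all genes tested. Bok lay lower than 98.4% of the genes tested and Bcl2 lower than 97.3%, while Bad lay above 74.9%.

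These counts depend on the scaling. With each library brought to the same FPKM sum, the median of all genes tested shifted by -1.32 between d12 and adult testis, and with division by the upper quartile by -0.72. Of all calls between these stages, 60.2% were higher as deposited, 30.4% with equal sums and 41.3% with the upper quartile. From d16 to d24 these shares were 75.3%, 37.2% and 55.9%, and from d24 to adult testis 86.6%, 44.9% and 72.6%. From d12 to d16 they were 73.5%, 60.0% and 59.7%. The members between d12 and adult testis were then 0 higher and 7 lower with equal sums, beside 22.7% and 52.1% of all genes, and 1 higher and 7 lower with the upper quartile, beside 27.9% and 39.6%. Relative to the median of all genes tested, Bad lay 1.87 higher on the log2 scale, Bcl2l1 1.08 and Bak1 0.80, while the other 7 lay lower, from -0.64 for Mcl1 to -3.18 for Bok. Bax, Bok, Bcl2 and Trp53 were at least 2-fold lower in adult testis than at d12 under every scaling and pseudocount tried. The scalings could hardly undo this, as they shifted the median by -1.32, -0.72 and, for the median ratio, 0.03. With a pseudocount of 1 FPKM Trp53 was at -1.01. Counting intervals of the ratio for Bax (1.89 to 4.85) and Trp53 (1.71 to 2.94) reach under 2-fold. Of all genes tested, 24.2% were lower as deposited and 23.6% with the median ratio, against the larger shares above for the other scalings. The share of all genes that stay lower under every choice is not given. The result for Bax, Bok, Bcl2 and Trp53 therefore cannot be set against all genes. The same shifts work against the 3 higher members, of which none was past 2-fold under every choice. With equal FPKM sums the sign of Bak1 turned to -0.17, Bcl2l1 was nearly level at 0.08 and Bad was at 0.88. With the upper quartile Bad alone passed, at 1.43, beside 0.63 for Bcl2l1 and 0.37 for Bak1, and a pseudocount of 1 FPKM brought Bak1 to 0.82.

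**Figure D4:**
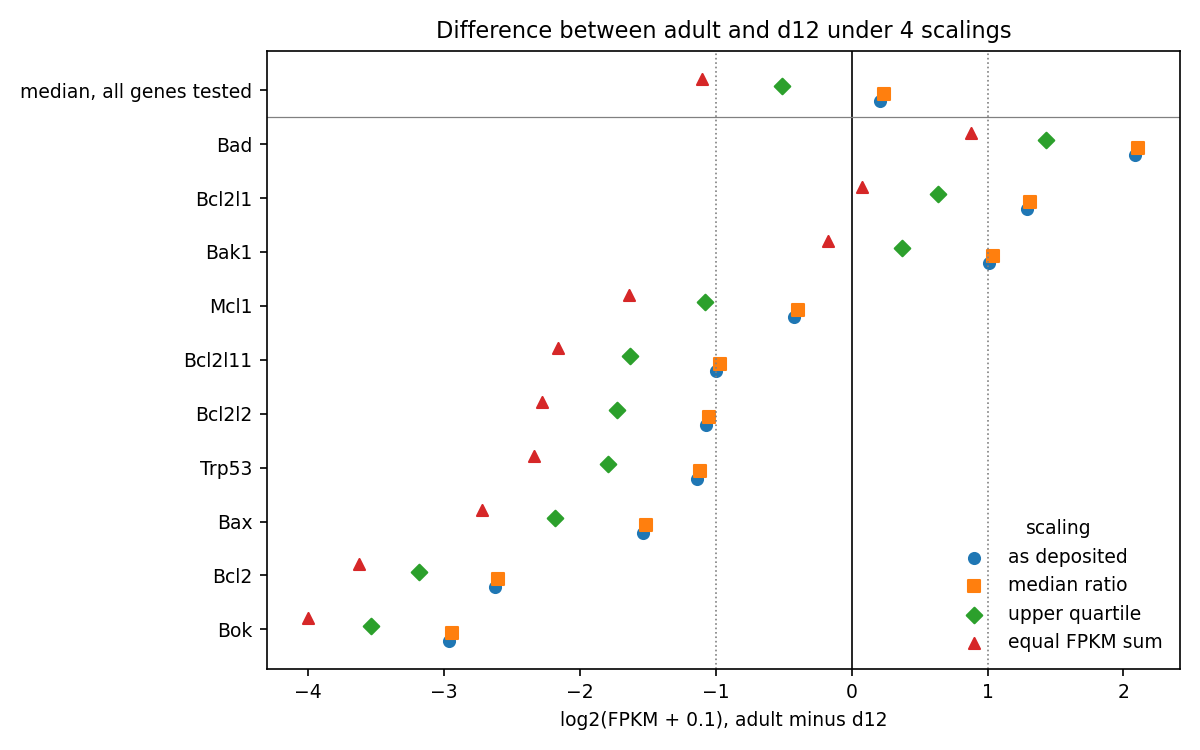
Difference in log2(FPKM + 0.1) between adult testis and d12 for the 10 members and for the median of all genes tested, as deposited and under 3 other scalings, with dotted lines at 2-fold. All points shift left together with equal FPKM sums, and Bak1 then passes from above to below 0.

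Other genes of the Bcl2 family were described by a list. Of 16 listed, 11 were tested, with 3 higher and 5 lower in adult testis than at d12 and a median of -0.34 on the log2 scale, beside 36.6% higher and 24.2% lower of all genes tested. Bcl2l14 had 0.324 FPKM at d12 and 0.0721 at d16, followed by 62.4 at d24 and 384.6 in adult testis, a higher adult level than any of the 10 members. Bcl2l15 was listed at 0 at d12 and had 0.135 FPKM at d16, then 1.79 at d24 and 1.67 in adult testis, and Bcl2l12 went from 4.75 to 17.8 FPKM. Of the BH3-only genes, Bmf had 2.40 FPKM at d12 and 1.47 at d16, against 0.560 at d24 and 0.121 in adult testis. Bid, which links death receptors to the mitochondrion, had 3.80 FPKM at d12 and 1.60 in adult testis. The remaining lower genes were Hrk, Bnip3 and Bnip3l, named with Bcl2l12 after their values were seen. The p53 target Pmaip1 did not count as changed between d12 and adult testis. It had 2.38, 6.00, 2.71 and 1.86 FPKM over the 4 stages, highest at d16. Bbc3, also a p53 target, reached at most 0.392 FPKM and was too low to be tested.

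Downstream of the mitochondrion, 18 of 19 listed genes were tested, with 3 higher, 9 lower and a median of -1.16, beside the same 36.6% and 24.2% of all genes. Apaf1, the scaffold that cytochrome c activates, had 5.39 FPKM at d12 and 2.97 at d16, then 1.54 at d24 and 1.21 in adult testis. Casp9 had 4.08, 2.48, 2.59 and 2.04 FPKM and fell just short of 2-fold. Lower genes also included Cycs, Aifm1, Casp2, Casp6, Casp8 and Xiap, which like Birc5, Zmat3 and Tradd below were named after their values were seen.

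In the opposite direction, Diablo, whose protein counters the caspase inhibitor Xiap, had 28.4 FPKM at d12 and 82.6 at d16, followed by 189.5 at d24 and 133.5 in adult testis. Cyct, the testis form of cytochrome c, had 14.9, 110.6, 158.7 and 151.9 FPKM, while the somatic form Cycs had 121.0, 90.2, 36.8 and 30.4. The ratio of Cyct to Cycs thus went from 0.123 at d12 to 1.23 at d16, then 4.31 at d24 and 5.00 in adult testis. Birc5, an inhibitor family gene that serves in cell division, was the last of the higher genes, with 27.9 FPKM at d12 and 92.4 in adult testis.

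Around Trp53, 15 of 18 listed genes were tested, with 2 higher, 6 lower and a median of -0.96, again beside 36.6% and 24.2% of all genes. Mdm2, which marks p53 for degradation, had 21.4 FPKM at d12 and 32.0 at d16, against 75.6 at d24 and 85.2 in adult testis. As deposited, Mdm2 and Trp53 went in opposite directions, and inside a library Mdm2 lay at 2.11 times Trp53 at d12 and 4.16 at d16, then 10.4 at d24 and 18.7 in adult testis. The kinase genes Atm and Chek2, which signal DNA breaks to p53, had 26.96 and 3.62 FPKM at d12 and 6.17 and 0.799 in adult testis. Gadd45a, a p53 target, had 10.7 FPKM at d12 and 1.47 in adult testis. Zmat3 was the other gene that was higher, with 0.657 FPKM at d12 and 1.60 in adult testis.

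Of 10 genes of the death receptor pathway, 7 were tested, with 1 higher, 3 lower and a median of -0.80, where 36.6% and 24.2% of all genes were higher and lower. Cflar, an inhibitor of caspase 8 activation, had 20.4 FPKM at d12 and 13.8 at d16, followed by 9.22 at d24 and 6.16 in adult testis. The receptor gene Tnfrsf1a had 5.60 FPKM at d12 and 1.87 in adult testis. Fasl, the ligand gene, was at 0.0423 FPKM at d12 and listed at 0 at d16, against 0.282 at d24 and 1.25 in adult testis, and is too low at the first stages for a fold. Tradd was the other lower gene. The 4 lists were tested by no set test. Their medians lay below the 0.21 of all genes tested, as did that of the 10 members.

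**Figure D5:**
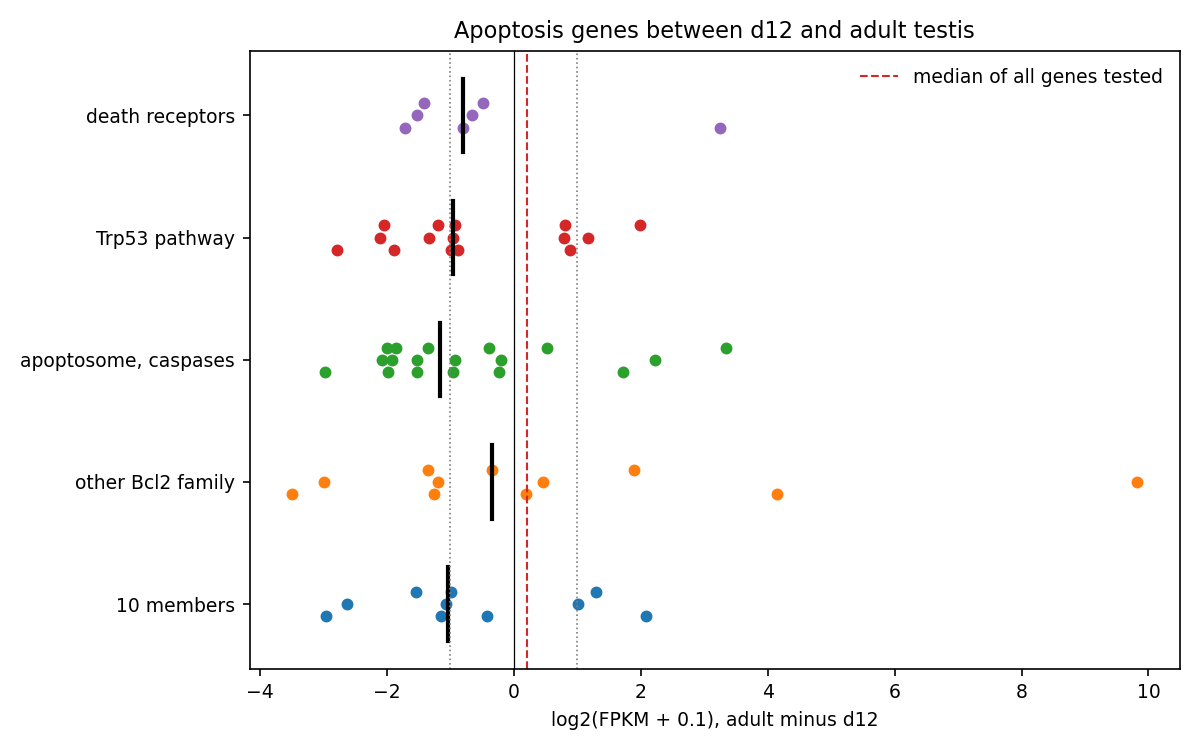
Difference in log2(FPKM + 0.1) between adult testis and d12 for each gene tested of the 10 members and of 4 lists of apoptosis genes, with a bar at each median, a dashed line at the median of all genes tested and dotted lines at 2-fold. The medians range from -1.16 for the apoptosome and caspases to -0.34 for the other Bcl2 family genes, whose farthest point is Bcl2l14.

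For each member the gene with the nearest profile was sought among the 13901 genes that averaged 1 FPKM or more, by the Euclidean distance between log2 profiles centred on their mean over the 4 libraries. With 4 points many genes lie close, so the names are a description. The nearest gene was Hist1h3i for Bax (distance 0.0120), Bbs4 for Bak1 (0.0223) and Fzd5 for Bok (0.0826). It was Clec3b for Bcl2 (0.130), Ran for Bcl2l1 (0.0331), Traf3 for Bcl2l2 (0.0372) and Arhgap11a for Mcl1 (0.0258). For Bcl2l11 it was Tsen54 (0.0359), for Bad Zfp296 (0.175) and for Trp53 Tmem44 (0.0670). Bad had the most isolated profile by this measure. Among the members themselves, Bcl2l2 and Bcl2l11 were the closest pair at a distance of 0.285. Bak1 and Bcl2l1 lay 0.364 apart, and Bcl2 and Bok 0.386. Many other genes lay nearer than these partners, 849 to Bcl2l2, 379 to Bcl2l11, 536 to Bak1, 480 to Bcl2l1, 88 to Bok and 79 to Bcl2.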

How the data were processed

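The authors deposited FPKM values of 23983 genes in 4 RNA libraries. By their methods and processing notes, read pairs of strand-specific libraries were mapped to GRCm38 with TopHat2 2.1.0 and Bowtie 1.1.2. This kept 1 alignment per pair. Cuffdiff (Cufflinks 2.2.1) gave FPKM per RefSeq gene. It was run with the options for correction of sequence bias and of reads with several alignments, and without correction for effective length. The scaling between libraries is not given in the sources used here, and median-ratio scaling changed it between neighbouring stages by factors of 0.978 to 1.02. The 4 H3K27ac samples are not analysed here.

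The value of 1 fragment was recovered from 14603 genes with 1 curated RefSeq transcript (GRCm38.p6). Among values of up to 20 fragments, 91.7% to 92.4% lay within 0.05 of a whole number, and 8909650 (d12), 9449190 (d16), 23686500 (d24) and 12052400 (adult) fragments lay on genes. The limit of 3 fragments for 1 kb is 0.240 FPKM at d12 and d16, 0.137 at d24 and 0.336 in adult testis. Transcript lengths within a factor of 1.1 were averaged, otherwise the shortest was used. Ratio intervals are exact (Clopper-Pearson). Steps were checked on simulated data. Python 3.11.15, numpy 2.4.6, pandas 2.3.3, scipy 1.17.1, biopython 1.88, matplotlib 3.10.9 and samtools 1.23.1 were used.

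Members and lists were chosen with earlier results of these data known. Named are the members, in each list the 3 genes with the largest difference between d12 and adult testis, direct partners, the nearest profiles and overlapping genes; some genes that this rule names are not reported here. Of 115 listed genes, 2 were found by an older symbol. Alternatives were a pseudocount of 1 FPKM, no minimum FPKM, 3 scalings, a fold of 1.5 and other gene choices in the ratio.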

Additional observations from a re-analysis of the deposited data

How the results depend on the processing

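No paired analysis was possible because each stage has 1 library, and for the same reason no library could be left out. Of 111 alternatives for 21 counts and ratios, 78 differed by at most 1.5 times (counts) or lay inside the counting interval (ratios), 33 moved and 0 reversed. Of 160 for single members, 119 lay inside the counting interval, 40 moved, and 1 turned the sign of a difference past 2-fold: Bak1 between d12 and adult testis, at -0.17 with equal FPKM sums. Differences under 2-fold also changed sign under some scaling, those of Bak1 from d12 to d16, Mcl1 from d16 to d24, and Bak1 and Bcl2l11 from d24 to adult testis.

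For the members, a pseudocount of 1 FPKM left 0 lower from d12 to d16. From d16 to d24, 0 were higher with equal FPKM sums and 1 with the upper quartile, beside 18.9% and 23.1% of all genes. The number lower there was 5 with equal sums, 3 with the upper quartile, 1 with no minimum FPKM and 3 at 1.5-fold, where 31.9% of all genes were lower with equal sums and 18.2% with the upper quartile, against 9.13% as deposited. From d24 to adult testis 2 were lower with equal sums, beside 9.30% of all genes against 2.08% as deposited, and 2 at 1.5-fold. From d12 to adult testis 0 were higher with equal sums and 1 with the upper quartile, beside 22.7% and 27.9% of all genes. No share of all genes is given for a pseudocount of 1 FPKM, for no minimum FPKM or for 1.5-fold. Counts at these settings therefore cannot be set against all genes.

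Between d12 and adult testis, the other Bcl2 family genes had 5 higher with no minimum FPKM and 3 lower with a pseudocount of 1 FPKM, and the apoptosome and caspase genes had 14 lower with equal sums, a scaling under which 52.1% of all genes were lower, as were 39.6% with the upper quartile. Genes of the Trp53 pathway were higher in 1 case with a pseudocount of 1 FPKM, 0 with equal sums, 1 with the upper quartile and 5 at 1.5-fold, and lower in 10 with equal sums, 10 with the upper quartile and 10 at 1.5-fold. Of the death receptor genes, 0 were higher with equal sums and 0 with the upper quartile, while 6, 6 and, at 1.5-fold, 5 were lower. Among all genes 22.7% were higher with equal sums and 27.9% with the upper quartile. Counts with a pseudocount of 1 FPKM, no minimum FPKM or 1.5-fold again lack such a share.

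The ratio of effectors to pro-survival genes without Mcl1 was 0.430 at d12 and 0.293 at d16, against 0.172 at d24 and 0.182 in adult testis. Without Bok it was 0.151 at d12, and from medians 0.150 at d24 and 0.157 in adult testis. The ratio at d12 was 1.41 to 2.37 times that in adult testis under these choices. Scalings move all genes alike by construction, which is what changes the counts, and the cause of the other moves was not tested. Depth limits Bok and Bcl2 most, with 5 and at least 6 fragments in adult testis.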
